A study of Mus musculus with 8 samples.

Results

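The granzyme B, chymase and cathepsin G locus of the mouse holds serine protease genes that lie next to each other on chromosome 14. The 9 genes described here are Gzmb, Gzmc, Gzmd, Gzme, Gzmf, Gzmg, Gzmn, Ctsg and Mcpt8, taken by name from that locus. A transcript cluster is the array's unit of measurement, a set of probes read as 1 transcript. Of the 9 genes, 8 had a single cluster of their own and are among the 22180 genes that a cluster names alone, and no cluster names Gzme alone: cluster 17306983 names Gzmd and Gzme together and is given as that shared cluster. The cells were natural killer (NK) cells from T-cell-depleted mouse bone marrow, in 4 groups with 2 biological replicates each, and RNA of each sample was hybridised to its own Affymetrix Mouse Gene 2.0 ST array, 8 in all. Day 0 cells were freshly isolated, and day 4 cells had grown in interleukin-2 (IL-2) at 1000 IU/mL. Day 9 cells received IL-2 again after 4 days. The last group was day 9 cells to which 7.5 µM of KU55933, an inhibitor of the DNA damage kinase ATM, was added on day 4. The activated cells of all 3 cultured groups were collected as adherent killer cells, so what adherence selects is shared by them and not by the fresh cells. The protocol mentions a vehicle control, but no label tells if day 9 cells without inhibitor received it. Neither strain, sex nor age of the mice is given in the sources used here. What 1 replicate stands for (1 mouse or a pool) is not given either, so the p-values measure the spread between these samples.

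Granzymes are serine proteases that NK cells and cytotoxic T cells store in granules and release, with the pore-forming protein perforin, onto a target cell. Granzyme B cleaves after aspartate and starts apoptosis in the target; Gzmc, Gzmd, Gzme, Gzmf and Gzmg are rodent relatives of it in the same cluster, known from activated killer cells cultured with IL-2. Gzmn is known as a granzyme of the mouse testis. Ctsg encodes cathepsin G, a protease of neutrophil granules that arises in promyelocytes, and Mcpt8 encodes a protease used as a marker of mouse basophils. In the RefSeq gene order the 9 genes stand as Mcpt8, Ctsg, Gzme, Gzmd, Gzmg, Gzmn, Gzmf, Gzmc and Gzmb, with no other protein-coding gene between them. On the other side of Mcpt8 lie the mast cell proteases Mcpt4, Mcpt9, Mcpt2 and Mcpt1 and the chymases Cma2 and Cma1.

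The promoters of Gzmc to Gzmg are shown because the 4 of these 5 genes that have a cluster of their own share much of their upstream sequence but did not reach their day 9 signal at the same time, as the values further on show. The sequences are those of RefSeq on GRCm38.p6, minus strand, read 5′ to 3′ in the direction of transcription. Each window of 120 bases lies around a run of 20 bases that the 5 genes share exactly (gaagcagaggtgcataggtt), which no other of the 32851 promoter windows in the table holds. Capitals mark matches to TGTGGT, the core bound by RUNX factors, and to TGACGTCA, the cyclic AMP response element (CRE).
Gzmc, chr14:56234648-56234767: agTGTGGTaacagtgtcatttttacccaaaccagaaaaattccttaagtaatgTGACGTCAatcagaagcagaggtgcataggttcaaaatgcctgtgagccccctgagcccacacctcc
Gzmd, chr14:56132588-56132707: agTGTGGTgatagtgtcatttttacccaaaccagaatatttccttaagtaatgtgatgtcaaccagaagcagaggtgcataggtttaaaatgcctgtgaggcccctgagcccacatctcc
Gzme, chr14:56120621-56120740: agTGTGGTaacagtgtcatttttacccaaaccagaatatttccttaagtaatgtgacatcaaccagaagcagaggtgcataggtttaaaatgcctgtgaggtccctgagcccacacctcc
Gzmg, chr14:56159590-56159709: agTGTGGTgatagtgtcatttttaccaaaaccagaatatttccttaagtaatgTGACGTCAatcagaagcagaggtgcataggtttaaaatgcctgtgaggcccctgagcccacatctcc
Gzmf, chr14:56211423-56211542: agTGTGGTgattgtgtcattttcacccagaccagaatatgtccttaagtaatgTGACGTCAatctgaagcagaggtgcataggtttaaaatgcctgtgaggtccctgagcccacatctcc

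Between Gzmd and Gzmg only 3 of the 120 bases of these windows differ, and between Gzmc and Gzmf 13 differ, the fewest and the most of the 10 pairs. Gzmc, Gzmf and Gzmg hold the complete CRE, 12 bases before the shared run. Counting from 1 at the 5′ end of TGACGTCA, Gzmd has C4T and Gzme has G5A at that place. Over the whole 300 bases (250 before the transcription start to 50 after it) Gzmd and Gzme were 93.4% identical, and the other pairs among the 5 genes lay between 74.6% and 84.8%. Against Gzmn, Ctsg and Mcpt8 the same 5 promoters were 45.4% to 53.4% identical, and against Gzmb 46.8% to 51.7%. Gzmb has a promoter of its own kind, shown whole, in which the capitals mark TGTGGT and the AP-1 site TGAGTCA.
Gzmb, chr14:56262285-56262584: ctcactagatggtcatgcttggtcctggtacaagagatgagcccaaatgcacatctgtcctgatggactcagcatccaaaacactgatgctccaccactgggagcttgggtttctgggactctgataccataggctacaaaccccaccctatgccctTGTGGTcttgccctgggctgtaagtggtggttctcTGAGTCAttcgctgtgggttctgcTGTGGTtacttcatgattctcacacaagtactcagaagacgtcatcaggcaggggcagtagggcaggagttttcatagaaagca

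Searched on both strands, TGTGGT stood in 8 of the 9 promoters, Gzmn being the exception, and in 16.8% of the 32851 promoter windows. TGACGTCA stood in 3 of 9 against 1.79% of all windows, and TGAGTCA, which on the other strand reads TGACTCA, in Gzmb against 5.20%. The T-box letters TCACACC stood in none of the 9 against 3.98%, and the STAT letters TTCNNNGAA in Gzmb and Ctsg against 8.30%. GGGAA, the core bound by Ikaros, was found in Gzmf, Ctsg and Mcpt8 against 62.7%, and TGGGAA (RBPJ, which contains GGGAA) in Gzmf against 25.6%. These matches describe letters in a window and are no measure of binding. The promoters of Gzmc to Gzmg are 74.6% to 93.4% identical, so the 9 promoters are not independent of each other. All 3 with TGACGTCA are among these relatives, and enrichment was not tested. Because the genes are relatives, which copy the probes of Gzmc, Gzmd, Gzmf, Gzmg and the shared cluster read is uncertain.

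The median log2 signal of an array was 3.66 to 3.91 and the highest signal of any cluster 12.9 to 13.1, and replicates correlated at 0.976 to 0.994 across the 13998 genes tested, which are not independent replicates. A gene was tested where its signal reached the array median on at least 2 arrays, and signal below the median is treated as background. All 8 genes with a cluster of their own passed. Gzmc, Gzmd, Gzmf, Gzmg and Gzmn lay below the median on both day 0 arrays and passed through the cultured groups alone, so that they differ from day 0 follows from the filter in part, and counts over the members are a description. Of the 10 NK markers listed (Ncr1, Klrb1c, Klrk1 and others) none lay below the median on both arrays of a group, and the mean log2 signal of the list was 9.66 to 9.75 on every array. Single NK markers moved both ways, 3 higher and 3 lower on day 4 than on day 0 (37.5% and 22.4% of all tested genes). Examples are Il2rb (1.37) and Itga2 (-2.19). Fresh cells also held signal of B cells and of monocytes and macrophages, and most of those markers were lower on day 9. On day 9 against day 0, all 4 tested B cell markers and 5 of 7 monocyte and macrophage markers were lower (22.0% of all tested genes), with 1 of the 7 (Cd14) higher. For example, Lyz2 of monocytes and macrophages fell by 5.27 and Cd79a of B cells by 4.55. Of 8 T cell markers, 3 were higher on day 9 (Cd28, Cd3e and Cd3g) and 4 lower, against 36.0% and 22.0% of all tested genes. On day 4, 3 of the 7 monocyte and macrophage markers were higher than on day 0 (Cd14, Chil3 and Fcgr1) and 3 lower, against 37.5% and 22.4%. The part of these changes in cell makeup in the differences from day 0 was not tested. A log2 difference of 1 is a 2-fold change, and ± gives limma's standard error of a difference. A gene is called where its limma p-value, adjusted by Benjamini-Hochberg over all tested genes, is below 0.05. With bulk samples, a change in the share of cells that use a gene and a change per cell cannot be told apart.

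After 4 days in IL-2 the 8 tested genes, from Mcpt8 to Gzmb, gave higher signal than in fresh cells, but to different extents. All 8 were called higher, where 37.5% of all tested genes were called higher and 59.9% in either direction. The call of Gzmn, whose signal was still near background on day 4, did not hold under every alternative, as given further on. The median difference over the 8 genes was 4.12, and that over all tested genes 0.080. With the 5 genes that were at background on day 0 set at their bound, the median of the 8 was 3.38. Gzmn had no bound on day 4 and was taken there as unchanged. Gzmb, the granzyme that fresh cells already expressed, gave 9.36 and 9.76 on the day 0 arrays, 12.64 and 12.43 on day 4, 12.50 and 12.42 on day 9, and 12.43 and 12.39 with KU55933. The 6 arrays of cultured cells stood above both fresh arrays, and among the cultured groups the values of neighbouring groups overlapped. Its rise to day 4 was 2.97 ± 0.15 (7.84-fold, adjusted p = 3.34e-06).

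Gzmc and Gzmd went from background to near the top of the scale within 4 days. Gzmc measured 3.08 and 3.50 on day 0, 11.90 and 11.89 on day 4, 12.17 and 12.15 on day 9, and 12.20 and 12.13 with KU55933. It was at least 254-fold higher on day 4 than on day 0 when each day 0 array is set at its median (adjusted p = 1.23e-07). The same bound is given for every gene at background on day 0. Gzmd measured 2.65 and 2.28 on day 0, 12.07 and 12.08 on day 4, 12.46 and 12.43 on day 9, and 12.41 and 12.32 with KU55933. It was at least 288-fold higher on day 4 (adjusted p = 7.12e-08). On the shared cluster of Gzmd and Gzme the signal was 2.83 and 2.65 on day 0, 11.46 and 11.38 on day 4, 11.69 and 11.60 on day 9, and 11.35 and 11.34 with KU55933. That cluster, at least 183-fold higher on day 4, was not tested, because it names 2 genes.

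**Figure D1:**
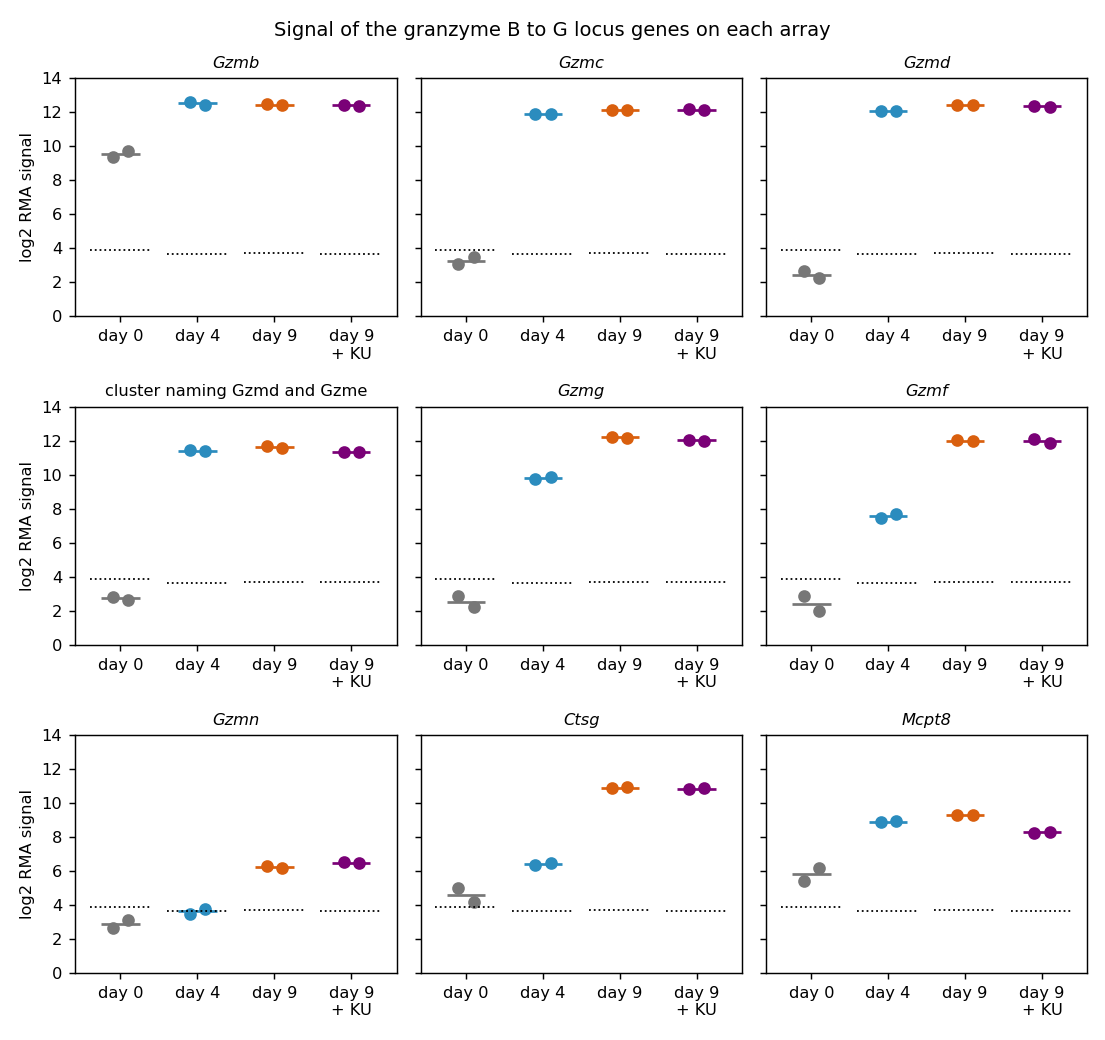
Log2 RMA signal (y axis) of 8 genes of the locus and of the shared Gzmd and Gzme cluster in the 4 groups (x axis; + KU, day 9 with KU55933). Points are arrays, solid lines group means of 2 arrays, and dotted lines the mean of the 2 array medians. Gzmb, Gzmc and Gzmd stood near their day 9 level by day 4, whereas Gzmf and Ctsg lay at 7.56 and 6.44 on day 4 and at 12.0 and 10.9 on day 9.

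Gzmg and Gzmf rose in both intervals, Gzmf mostly late. Gzmg measured 2.85 and 2.25 on day 0, 9.75 and 9.89 on day 4, 12.24 and 12.18 on day 9, and 12.07 and 12.01 with KU55933. It was at least 60.4-fold higher on day 4 than on day 0 (adjusted p = 6.17e-07) and rose by a further 2.39 ± 0.19 to day 9 (5.24-fold, adjusted p = 7.20e-05). Gzmf measured 2.88 and 1.97 on day 0, 7.46 and 7.67 on day 4, 12.03 and 11.98 on day 9, and 12.09 and 11.88 with KU55933. It was at least 12.6-fold higher on day 4 than on day 0 (adjusted p = 3.24e-06) and rose by 4.44 ± 0.26 from day 4 to day 9 (21.7-fold, adjusted p = 1.67e-05). On day 4 the linear signal of Gzmf was 4.61% of that on day 9, that of Gzmg 19.1%, and that of Gzmc 83.2%. So Gzmf and Gzmg, whose promoter windows differ from those of Gzmc and Gzmd by 13 and fewer of 120 bases, stood well short of their day 9 signal on day 4.

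Gzmn and Ctsg rose late as well. Gzmn measured 2.65 and 3.14 on day 0, 3.48 and 3.81 on day 4, 6.33 and 6.18 on day 9, and 6.58 and 6.47 with KU55933. Only 1 of its 2 day 4 arrays reached the array median, so no size is given for its day 4 difference, whose call (adjusted p = 0.00899) was lost when arrays were centred (adjusted p = 0.0833) or day 4 replicate 2 was left out (adjusted p = 0.0690). From day 4 to day 9 it rose by 2.61 ± 0.19 (6.09-fold, adjusted p = 4.44e-05). Because of that day 4 array, this and the other differences of Gzmn from day 4 are fitted values and not measured sizes. Ctsg measured 5.03 and 4.19 on day 0, 6.38 and 6.49 on day 4, 10.90 and 10.96 on day 9, and 10.83 and 10.91 with KU55933. It rose by 1.82 ± 0.24 (3.54-fold, adjusted p = 0.000302) to day 4 and by 4.49 ± 0.24 (22.5-fold, adjusted p = 9.84e-06) after it, so that its day 9 arrays stood far above both earlier groups.

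Mcpt8 rose early. It measured 5.43 and 6.22 on day 0, 8.90 and 8.96 on day 4, 9.29 and 9.32 on day 9, and 8.28 and 8.32 with KU55933. The rise to day 4 was 3.10 ± 0.22 (8.59-fold, adjusted p = 1.37e-05). Unlike the other 7 tested genes, its arrays with KU55933 lay below those of both day 4 and day 9, as described further on.

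From day 4 to day 9, 4 of the 8 genes were called higher (Gzmf, Gzmg, Gzmn and Ctsg), against 12.2% of all tested genes called higher and 27.8% in either direction, and none was called lower. The median over the 8 genes was 1.38 and that over all tested genes -0.0052. Gzmb (-0.071 ± 0.15, adjusted p = 0.784), Gzmc (0.27 ± 0.15, adjusted p = 0.233), Gzmd (0.37 ± 0.14, adjusted p = 0.0874) and Mcpt8 (0.38 ± 0.22, adjusted p = 0.269) did not pass. Without the day 0 arrays, whose replicates differed most for these genes, Gzmd (adjusted p = 0.0172) and Mcpt8 (adjusted p = 0.0154) passed too. The 95% interval of the difference reached from -0.43 to 0.29 for Gzmb and from -0.07 to 0.61 for Gzmc. On day 9 the levels of both and of Gzmd, Gzmf and Gzmg lay within 1 log2 unit of the highest signal on the arrays. Whether a ceiling of the array limits these levels was not tested.

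**Figure D2:**
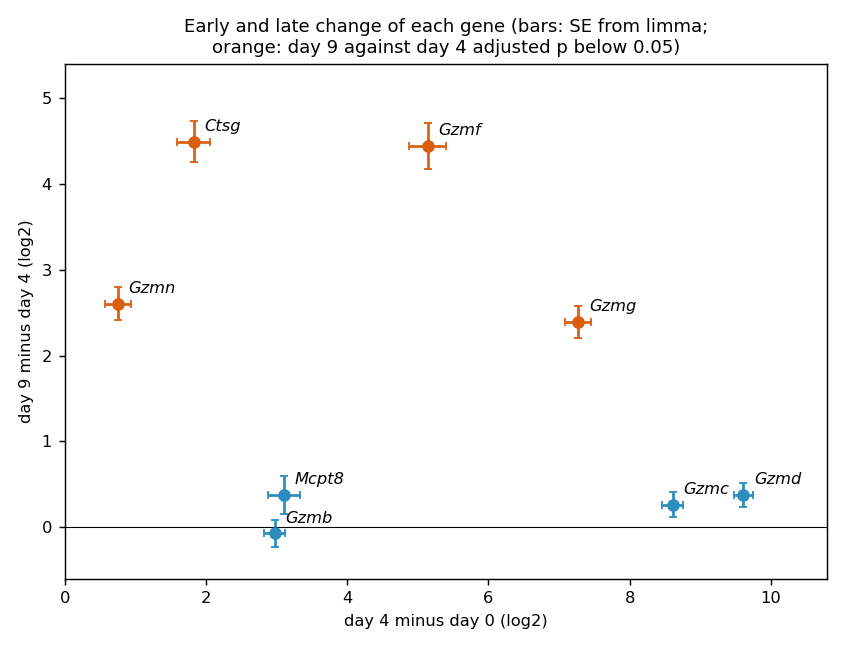
Log2 difference from day 0 to day 4 (x axis) against that from day 4 to day 9 (y axis) for the 8 tested genes. Day 0 signal of Gzmc, Gzmd, Gzmf, Gzmg and Gzmn was background, so their place on the x axis is a fitted value and not a measured size. Bars are standard errors from limma, and genes called from day 4 to day 9 are orange. Gzmc and Gzmd lie at the right near 0 on the y axis, whereas Ctsg and Gzmf lie highest at 4.49 and 4.44.

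The difference in timing between the granzymes was also read within each array, where a shift common to the whole array cancels. Gzmf minus Gzmd was -4.61 to -4.41 on the day 4 arrays and -0.46 to -0.43 on the day 9 arrays, a change of 4.07. For Ctsg against Gzmd the same change was 4.12, for Gzmn 2.23 and for Gzmg 2.02, and in each of these 4 cases the day 4 and day 9 arrays did not overlap. Mcpt8 kept its distance from Gzmd, with a change of 0.0050 and overlapping arrays. An exact two-sided permutation test of 2 against 2 arrays cannot go below p = 0.333, which it gave for each of the 4 cases.

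Against day 0, all 8 genes were called higher on day 9, against 36.0% of all tested genes called higher, 22.0% lower and 58.0% in either direction. With KU55933 all 8 were called higher too, against 37.3% higher, 21.9% lower and 59.1% in either direction. The medians over the 8 genes were 7.59 and 7.57, or 7.21 and 7.17 with the genes at background at their bound, where those over all tested genes were 0.094 and 0.11. By the bound, day 9 signal exceeded that of fresh cells at least 373-fold for Gzmd, 317-fold for Gzmg, 305-fold for Gzmc, 274-fold for Gzmf and 5.09-fold for Gzmn. For the genes that fresh cells expressed above the median, the measured rise to day 9 was 79.7-fold for Ctsg (adjusted p = 1.01e-06), 11.2-fold for Mcpt8 (adjusted p = 8.52e-06) and 7.46-fold for Gzmb (adjusted p = 3.52e-06). These comparisons share the day 0 arrays with the comparison of day 4.

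In the gene order, Gzmg, Gzmn and Gzmf, the granzymes called higher from day 4 to day 9, lie next to each other. Ctsg, called higher as well, lies apart from them, between the early Mcpt8 and Gzme. Gzmf, late, lies between Gzmn and the early Gzmc, and Gzmg, which rose in both intervals, between Gzmn and the early Gzmd. Next to Mcpt8 the 4 mast cell proteases Mcpt1, Mcpt2, Mcpt4 and Mcpt9 lay below the array median on both arrays of every group and were not tested. Cma1, a mast cell chymase at the far end, measured 6.31 and 6.33 on day 0, 4.66 and 4.37 on day 4, 7.77 and 7.84 on day 9, and 7.47 and 7.33 with KU55933. It fell by 1.80 to day 4 (adjusted p = 1.37e-05) and rose by 3.29 to day 9 (adjusted p = 3.11e-06), so Cma1 shared the late rise of Ctsg and not the early one. Its neighbour Cma2, at 4.06 and 4.45 on day 0, fell to day 4 (adjusted p = 0.00054) and lay below the median in each cultured group.

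Among 32 protein-coding genes that flank the proteases within 500 kb of the members, 24 were tested. On day 4, 9 of the 24 were higher and 7 lower than on day 0 (median -0.23), and from day 4 to day 9, 5 were higher and 3 lower (median -0.069). Those counts stand beside 37.5% higher and 22.4% lower of all tested genes on day 4, and 12.2% and 15.6% from day 4 to day 9.

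**Figure D3:**
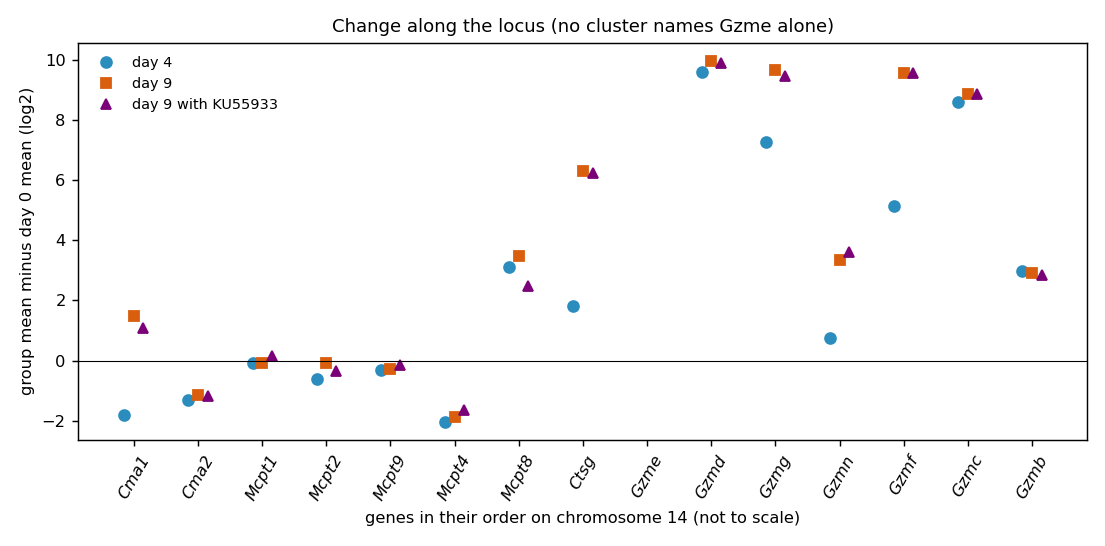
Group mean minus day 0 mean (y axis, log2) of the proteases in their order on chromosome 14 (x axis, not to scale), for day 4, day 9 and day 9 with KU55933. No point is drawn for Gzme, and differences of genes at background on day 0 are fitted values, sized in the text by their bounds. Cma2 and the mast cell proteases up to Mcpt4 were below the array median in the cultured groups, and the distance between day 4 and day 9 is wide for Ctsg, Gzmg, Gzmn, Gzmf and Cma1.

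Markers of the cells that Ctsg and Mcpt8 are best known from did not rise with them to day 9. Of 10 neutrophil and promyelocyte markers, 8 were higher on day 4 than on day 0 (37.5% of all tested genes), among them Mpo (1.75) and Elane (0.98), as Ctsg was. From day 4 to day 9, 9 of the 10 fell (15.6% of all tested genes), such as Mpo (-1.94), Elane (-1.10) and Prtn3 (-1.13), while Ctsg rose by 4.49. The mean log2 signal of the 10 markers was 3.94 to 4.09 on the day 0 arrays, 5.69 to 5.74 on day 4, 3.22 to 3.31 on day 9 and 3.19 to 3.22 with KU55933. On day 9 Camp, Ngp, S100a8, S100a9 and Retnlg lay below the array median on both arrays, and with KU55933 Mpo did too. The part of these cells in the day 4 level of Ctsg was not tested.

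Beside Mcpt8, 5 of 7 other basophil markers were tested. To day 4 Prss34, another basophil protease, rose by 1.33 while Gata2 (-2.52) and Cd200r3 (-1.21) fell. By day 9, 4 of the 5 stood below day 0 (Prss34, Ms4a2, Gata2 and Cd200r3) and none above, whereas Mcpt8 stood 3.48 above it. Of all tested genes, 22.0% were called lower and 36.0% higher in that comparison. The mean of the 7 markers went from 4.67 to 4.92 on the day 0 arrays to 4.32 to 4.41 on day 4, 3.56 to 3.74 on day 9 and 3.39 to 3.43 with KU55933. On day 9 Ms4a2 and Fcer1a, which encode chains of the high-affinity IgE receptor, lay below the median on both arrays, as did Gata2, Il4 and Cd200r3. Cpa3, the carboxypeptidase of basophils and mast cells, stayed at 7.22 and 7.29 on day 9, close to its 7.12 and 7.33 on day 0.

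**Figure D4:**
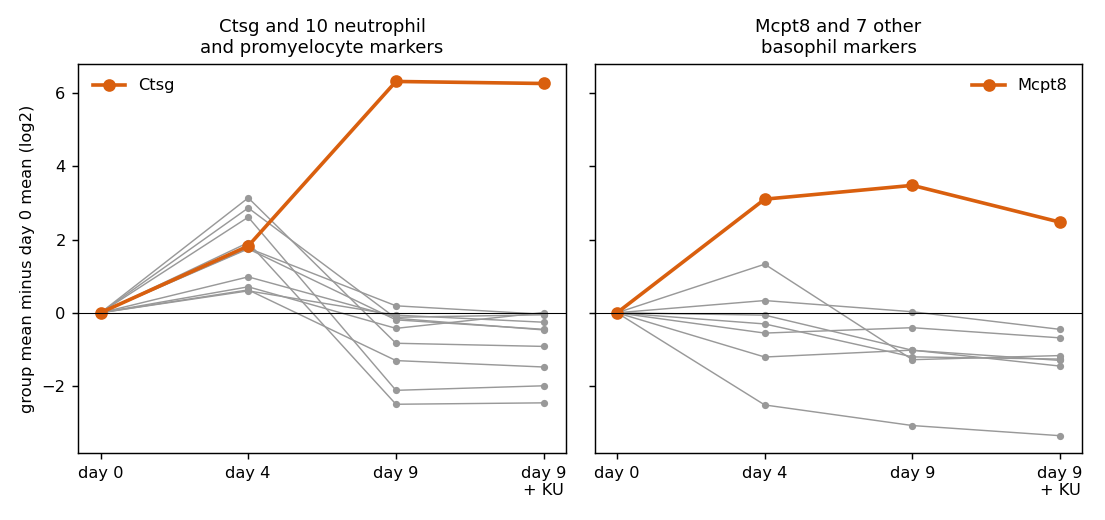
Group mean minus day 0 mean (y axis, log2) across the 4 groups (x axis) for Ctsg with 10 neutrophil and promyelocyte markers (left) and for Mcpt8 with 7 other basophil markers (right). Orange lines are the locus genes and grey lines the markers. On day 9 Ctsg stands 6.32 and Mcpt8 3.48 above day 0, while every grey line lies at or below 0.19.

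The tested granzymes of the locus and Ctsg differed little between day 9 cells with and without KU55933. The shared cluster of Gzmd and Gzme, which was not tested, was lower by 0.30 with KU55933. Its arrays with KU55933 (11.35 and 11.34) lay below those of day 9 (11.69 and 11.60) and of day 4 (11.46 and 11.38). With KU55933 none of the 8 genes was called against day 9 by limma, where 0.986% of all tested genes were (0.750% higher and 0.236% lower), and 1 of the 8 had an unadjusted p below 0.05. The median over the 8 genes was -0.053 and that over all tested genes 0.018. The difference and its 95% interval were -0.051 (-0.41 to 0.31) for Gzmb, 0.0034 (-0.34 to 0.34) for Gzmc, -0.082 (-0.40 to 0.24) for Gzmd and -0.17 (-0.61 to 0.26) for Gzmg. Wider intervals belonged to Gzmf (-0.021, from -0.63 to 0.59), Ctsg (-0.056, from -0.61 to 0.50) and Gzmn (0.27, from -0.16 to 0.70). Changes of a size within these intervals are not excluded with 2 arrays per group. The intervals are not adjusted over all tested genes and are no limit of detection: Mcpt8, at -1.01, was not called either. On day 9 Gzmb, Gzmc, Gzmd, Gzmf and Gzmg had means from 12.0 (Gzmf) to 12.5 (Gzmb), near the highest signal on those arrays (12.9). Whether a ceiling of the array hides a difference of these genes was not tested. Against day 4, 4 genes were called higher with KU55933 (Ctsg 4.44, Gzmf 4.42, Gzmn 2.88 and Gzmg 2.22), against 12.3% of all tested genes called higher and 26.0% in either direction. That comparison and the one of day 9 with day 4 share the day 4 arrays.

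Mcpt8 was the gene with the unadjusted p below 0.05. Its arrays with KU55933 (8.28 and 8.32) lay a full log2 unit below those of day 9 (9.29 and 9.32) and below those of day 4 (8.90 and 8.96), with no overlap. Against day 9 the difference was -1.01 ± 0.22 (2.01-fold lower, unadjusted p = 0.00228, adjusted p = 0.107), with an interval from -1.53 to -0.48. Against day 4 it was -0.63 ± 0.22 (1.55-fold lower, adjusted p = 0.0801). The standard error is shared over the 4 groups, and the day 0 replicates of Mcpt8 (SD 0.56) differed far more than those of day 9 (SD 0.017) and of KU55933 (SD 0.023). With the day 0 arrays left out, an alternative chosen after the data were seen, the difference against day 9 was called (adjusted p = 0.00975), and so was that against day 4 (adjusted p = 0.00233). Over all alternatives the adjusted p against day 9 ranged from 0.00975 to 0.437.

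Within each array Mcpt8 lay -3.21 to -3.10 from Gzmb on day 9 and -4.15 to -4.07 with KU55933. A shift common to the whole array cancels in this change of -0.96 (exact permutation p = 0.333, the smallest possible). None of the 5 other tested basophil markers was called with KU55933 against day 9. Their median was -0.28, with Cpa3 at -0.48 (adjusted p = 0.325). Against day 4, 4 of the 5 were called lower with KU55933 (Prss34, Ms4a2, Gata2 and Cpa3), against 13.7% of all tested genes. Without KU55933, 2 of the 5 were called lower on day 9 than on day 4 (Prss34 and Ms4a2), against 15.6%. The part of basophils in the difference of Mcpt8 was not tested. Cma1 differed by -0.40 between day 9 with KU55933 and day 9 (adjusted p = 0.266).

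**Figure D5:**
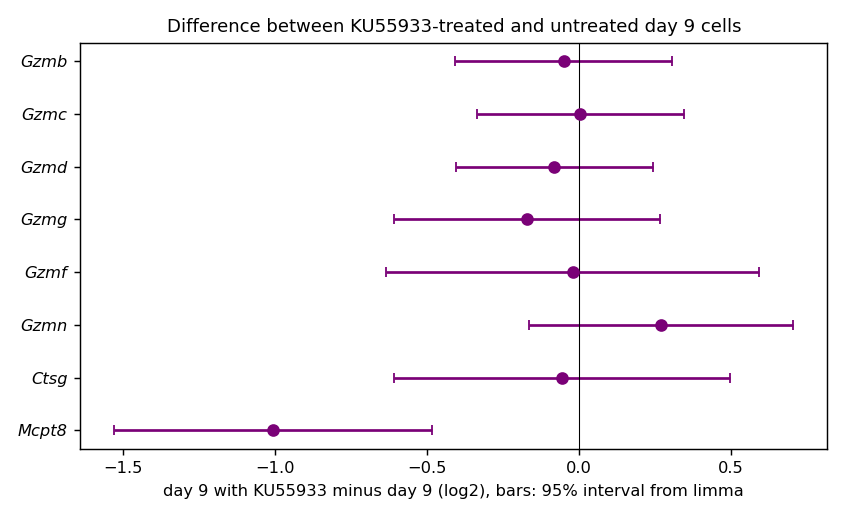
Log2 difference between day 9 with KU55933 and day 9 (x axis) for the 8 tested genes (y axis), with 95% intervals from limma. The interval of Mcpt8, from -1.53 to -0.48, is the only one that does not include 0, and after adjustment over all tested genes it was not called.

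The granule pathway elsewhere in the genome held genes that rose by day 4, such as Prf1, and others that moved later. Of 4 genes listed outside the locus, Prf1 (perforin), Gzma and Gzmk rose to day 4 and Gzmm did not pass (-0.11). None of them was called from day 4 to day 9. Of all tested genes, 37.5% were called higher to day 4, and 27.8% were called in either direction from day 4 to day 9. Prf1 measured 9.53 and 9.65 on day 0, 11.94 and 11.96 on day 4, and 11.91 and 11.90 on day 9, an early course like that of Gzmb, with a rise of 2.35 (adjusted p = 2.34e-06). Gzma, already at 11.09 and 11.13 on day 0, rose by 0.88 (adjusted p = 0.000195). Among 8 genes of granzyme maturation and packing 5 rose to day 4 and 1 fell, against 37.5% and 22.4% of all tested genes, and from day 4 to day 9, 1 rose and 2 fell, against 12.2% and 15.6%. Ctsc, which encodes the peptidase that activates granzyme proenzymes, rose by 1.30 (adjusted p = 2.34e-05). Cst7, which encodes cystatin F, an inhibitor of that peptidase, went on rising by 0.82 from day 4 to day 9 (adjusted p = 0.00199). Ctsh, which encodes the peptidase cathepsin H, fell by 1.19 to day 4 (adjusted p = 0.000262) and by 2.24 to day 9 (adjusted p = 3.28e-05). Igf2r, a receptor for mannose 6-phosphate that sorts enzymes to lysosomes, rose by 0.66 to day 4 (adjusted p = 0.00112) and fell by 0.39 after it (adjusted p = 0.0331).

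Of the 6 listed serpins, which inhibit granzymes and related proteases, 4 were tested. Serpinb9, which encodes an inhibitor of granzyme B, rose by 2.11 to day 4 (adjusted p = 3.34e-06) and then stayed, with 0.0044 to day 9 (adjusted p = 0.984). Serpinb9b rose by 3.93 to day 4 (adjusted p = 2.42e-06) and by 1.10 to day 9 (adjusted p = 0.00358). None of the 4 was called with KU55933 against day 9.

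Among 15 transcription factors linked to granzyme transcription 5 rose and 6 fell to day 4 (median -0.12). The 5 higher stand near the 37.5% of all tested genes called higher, and the 6 lower stand beside 22.4% called lower. Rbpj (1.93), Batf (1.63) and Eomes (1.06) rose, whereas Junb (-3.63), Notch2 (-2.19) and Tbx21 (-0.93) fell. From day 4 to day 9, 5 of the 15 rose (Nfil3, Rbpj, Junb, Runx3 and Prdm1) and none fell, against 12.2% and 15.6% of all tested genes. Prdm1, which encodes the repressor BLIMP-1 of effector lymphocytes, measured 7.12 and 7.20 on day 4, 7.97 and 7.92 on day 9 and 8.36 and 8.42 with KU55933, a rise of 0.78 to day 9 (adjusted p = 0.00113). Its difference of 0.44 with KU55933 was not called (adjusted p = 0.125).

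The genes with the pattern most like each member were found by Pearson's r of log2 signal over the 8 arrays, which form 4 groups, so that r is high for any gene with the same group means. Gzmb was closest to Dtwd1 (r = 0.9996), Gzmc to Bcl2l13 (0.9993) and Gzmd to Zbtb25 (0.9994). For the late genes they were Frmd4a for Gzmf (0.9985), Furin for Gzmn (0.9978) and Psrc1 for Ctsg (0.998), and for Gzmg it was Anxa7 (0.9991). Mcpt8 was closest to Pmm2 (0.9934), the lowest best match of the 8 genes. Among the members themselves r was 0.9988 for Gzmc with Gzmd and 0.9823 for Gzmn with Ctsg, but 0.6803 for Gzmb with Gzmn.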

How the data were processed

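The authors used RMA, per the submitters' processing notes, and deposited log2 signals of 41345 transcript clusters for each of the 8 arrays. RMA makes the distributions of arrays alike, which can shrink differences between groups. A second deposited table, by the Transcriptome Analysis Console, lists the authors' group averages (log2) and ANOVA p-values for 11036 clusters, and its averages were used as an alternative. The sources used here name neither software versions nor a genome build. Symbols came from the array annotation: 23521 clusters name 1 gene, 1820 several and 16004 none listed, and no symbol was changed through the RefSeq table. A gene was its brightest cluster, and 13998 of 22180 genes reached the array median (percentile 50) on at least 2 arrays. The fit was limma 3.58.1 (R 4.3.3), with a mean for each group and all 8 arrays sharing the spread (4 residual and 3.69 prior degrees of freedom), giving 6 comparisons, many of which share arrays. The fit was checked on simulated data. The precision is limited by 2 arrays per group.

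The members and the lists were chosen with earlier results of these data known. All 9 members are named, with members of the lists and the tested genes of highest correlation with each (3 each were computed). Genes of the lists that the text gives are examples. Marker lists of T, B and mast cells and of monocytes were computed as well: from day 4 to day 9 they had 3, 0, 1 and 1 genes higher and 1, 4, 1 and 6 lower, of 8, 4, 5 and 7 tested. Promoters, with 250 bases before and 50 after the start, are from RefSeq (GRCm38.p6; 9 of 9 members matched), aligned with Biopython 1.88. Replicate numbers did not pair the samples: deviations of equally numbered arrays correlated at -0.03 to 0.05 over the 6 pairs of groups. Alternatives were no dim filter, percentile 75, averaged clusters, the authors' averages, array centring or quantile normalization, a trend of variance with signal, a block for replicate number, leaving out each array, the 4 compared arrays alone, a minimum of 2-fold, and, added after the data were seen, no day 0 arrays.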

Additional observations from a re-analysis of the deposited data

Results flagged for a closer look

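The cluster that names Gzmd and Gzme together (17306983) enters no test of the report, and its signal on day 9 stood 8.91 above that of day 0 on the log2 scale, with the cultured arrays from 11.34 to 11.69 and the fresh arrays at 2.65 and 2.83. The fresh arrays were at background, so the measured size is the bound of at least 214-fold. It was singled out as a signal in data that the comparisons do not use, above the level of the control arrays.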

How the results depend on the processing

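Among counts of called locus genes under the alternatives, 100 stayed within 1.5 times the reported count and 5 did not. The 5 concern KU55933 against day 9, where 0 genes were called: the count was 1 (Mcpt8) with a mean-variance trend, with only the 4 arrays compared, without either day 0 array and without both, and the other arrays left out gave 0, so leaving out an array gave 0 to 1. Leaving out the day 0 arrays, chosen after the data were seen, takes their spread out of the fit. Among the cultured groups, leaving out 1 day 0 array gives the same fit as leaving out both. The counts of alternatives given here therefore hold that fit more than once. For single genes, 2 calls were lost, both of Gzmn to day 4, and 25 were gained, all of Gzmd or Mcpt8 among the cultured groups. Signs turned only for differences that were not called. For day 9 against day 4, Gzmb was 0.046 after centring and -0.18 to 0.033 with an array left out. For KU55933 against day 9, Gzmc was -0.066 after centring and -0.031 to 0.037 with an array left out, Gzmb was 0.10 and Gzmf 0.015 after quantile normalization, and Gzmf was -0.13 to 0.086 with an array left out; the cause was not tested. Centring shifted the 6 comparisons by -0.35 to 0.12 and turned the share of calls that were higher from 62.6% to 40.4% for day 4 and from 62.0% to 46.8% for day 9, both against day 0, from 43.9% to 58.9% for day 9 against day 4 and from 76.1% to 58.7% for KU55933 against day 9; after quantile normalization it was 50.4% for day 4 against day 0. With the replicate block, the locus counts were 8, 8, 8, 4, 4 and 0 in the order of the comparisons, as without it, and no locus call changed; over all genes it called 60 instead of 138 for KU55933 against day 9. That total ranged from 1 to 320 over the alternatives, whereas for day 9 against day 4 it was 2223 to 4933 against 3898. The authors' averages gave the same differences within the spread of replicates. Signal near the array median limits Gzmn.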
